A study of Arabidopsis thaliana with 24 samples.

Results

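The 10 genes described here encode calcium-permeable channels of Arabidopsis thaliana. They are 5 cyclic nucleotide-gated channels (CNGC2, CNGC4, CNGC6, CNGC19 and CNGC20), 2 osmosensitive channels (OSCA1.1 and OSCA1.3), 2 glutamate receptor-like channels (GLR3.3 and GLR3.6) and the vacuolar channel TPC1. They were taken by gene identifier from a count table of 33602 genes. The rule uses no measured value, but the members were chosen with earlier results of these data known. All 10 were among the 17734 genes that passed the filter on low counts, so each was tested in every comparison.

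RNA was sequenced from whole 7-day-old seedlings of the Col-0 ecotype grown in liquid medium. The 6 groups were card1-1 given 5 µM DMBQ, card1-1 given DMSO, card1-2 given 5 µM DMBQ, card1-2 given DMSO, WT given 5 µM DMBQ and WT given DMSO, each for 10 min, with 4 libraries per group and 24 in all. DMSO, the solvent, is called mock below. WT is a line that expresses aequorin, a protein that emits light when it binds calcium. The labels describe neither the lesions of the card1 lines nor whether these lines carry aequorin. DMBQ is a dimethoxy-benzoquinone known to induce attachment organs in parasitic plants. CARD1, also called HPCA1, is a receptor kinase at the plasma membrane that senses quinones and extracellular hydrogen peroxide.

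Calcium enters the cytosol through channels in the plasma membrane and, on some accounts, in the vacuolar membrane, and many plant stimuli are read through such a rise. CNGC2 and CNGC4 form a channel that the immune kinase BIK1 opens during pattern-triggered immunity. OSCA1.1 opens under osmotic stress, OSCA1.3 is a BIK1 target in guard cells, and GLR3.3 and GLR3.6 carry the wound signal from leaf to leaf. Channel opening is set by phosphorylation, voltage and ligands, none of which RNA counts measure. The data address another question, namely whether the transcripts of these channels differ with DMBQ or with genotype.

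Depth and alignment differed between libraries. Gene counts per library ran from 2048246 to 9000207. The share of records that the counting left out as not uniquely aligned ran from 48.3% to 66.5% in card1-1 with DMBQ, from 31.9% to 61.1% in card1-2 with DMBQ, from 29.7% to 41.8% in WT with DMBQ and from 17.3% to 41.2% over the 12 mock libraries. It exceeded 55% in card1-1 DMBQ replicates 1 and 4 and in card1-2 DMBQ replicate 3, and its part in the results was not tested beyond the fits named beside them. The 3 shoot markers were abundant and did not move together in card1-1. RBCS1A, the small Rubisco subunit, was at 7960 to 10400 CPM in card1-1 with DMBQ, against 3470 to 6480 CPM in mock, and CAB1, a chlorophyll-binding protein, at 3010 to 3410 CPM, against 1350 to 2300 CPM. RCA, the Rubisco activase, was at 5250 to 6410 CPM in card1-1 with DMBQ, against 6840 to 8550 CPM in mock. None of these 3 pairs overlapped; in card1-2 CAB1 and RCA did not overlap either, in the same directions, and in WT all 3 overlapped. The 4 root markers summed to 32.5 to 57.5 CPM in card1-1 with DMBQ, against 106 to 308 CPM in card1-1 mock, sets that did not overlap. They summed to 56.6 to 276 CPM in card1-2 with DMBQ, against 89.1 to 179 CPM in mock, and to 84.6 to 150 CPM in WT with DMBQ, against 94.3 to 127 CPM in mock. Most of this came from PRP3, a root hair cell wall protein, and the root aquaporin TIP2;3 did not follow it. TIP2;3 averaged 10.3 ± 6.32 CPM in card1-1 with DMBQ and 7.81 ± 3.07 CPM in card1-1 mock, and in WT it was at 9.2 to 14 CPM with DMBQ, against 5.29 to 8.47 CPM in mock, sets that did not overlap. SHV2, a root hair gene, was at 0 to 4 CPM and NRT2:1, a root nitrate transporter, at 0 to 1.14 CPM. The part of shoot and root RNA in the results was not tested. The seed storage genes CRU3 and SESA3 stayed at or below 3.3 CPM, and the pollen marker VGD1 was at 0 in every library. CARD1 itself was not absent in the mutants, at 53.9 ± 6.01 CPM in card1-1 mock, 52.7 ± 12.6 CPM in card1-2 mock and 71.3 ± 5.4 CPM in WT mock (SD, n = 4 each). Its log2 difference from WT in mock was −0.40 (SE 0.19) in card1-1 and −0.44 (SE 0.20) in card1-2, not called by edgeR, so its level leaves the genotype labels unchecked.

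The promoters of 3 members are shown because OSCA1.1 and OSCA1.3 had the lowest p-values when mutants were compared with WT, and because CNGC19 had the widest fitted difference with DMBQ. Each is the 250 bases before the annotated start in the RefSeq annotation of TAIR10.1, read 5′ to 3′ on the gene's strand. Capitals mark the W-box core TTGACC or TTGACT, the site of WRKY factors, and the CGCG box CGCGTT or ACGCGT, the site of calmodulin-binding CAMTA factors, searched on both strands.
OSCA1.1, chr4:2122257-2122506, plus strand: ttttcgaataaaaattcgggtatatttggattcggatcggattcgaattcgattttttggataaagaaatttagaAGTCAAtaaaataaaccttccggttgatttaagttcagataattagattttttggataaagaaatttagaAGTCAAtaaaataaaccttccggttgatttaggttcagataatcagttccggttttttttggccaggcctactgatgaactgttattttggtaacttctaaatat
OSCA1.3, chr1:4044047-4044296, minus strand: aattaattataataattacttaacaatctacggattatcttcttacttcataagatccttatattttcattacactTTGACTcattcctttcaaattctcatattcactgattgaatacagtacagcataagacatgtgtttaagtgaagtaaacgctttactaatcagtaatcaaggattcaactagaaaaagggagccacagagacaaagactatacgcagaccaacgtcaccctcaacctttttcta
CNGC19, chr3:6044752-6045001, plus strand: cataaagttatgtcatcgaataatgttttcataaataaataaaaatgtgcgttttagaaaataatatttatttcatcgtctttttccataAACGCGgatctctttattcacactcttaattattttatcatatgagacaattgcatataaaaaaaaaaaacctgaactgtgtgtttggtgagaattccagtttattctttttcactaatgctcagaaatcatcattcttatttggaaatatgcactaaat
The OSCA1.1 promoter held 2 W-box cores, at 175 and 105 bases before the start, both on the opposite strand and so printed as AGTCAA. Both lay in a direct repeat of 56 bases whose copies are offset by 70 bases, at the same point of each copy. OSCA1.3 held 1 W-box core, 174 bases before the start, TPC1 held 1 at 70 bases, and the other 7 promoters had none in this window. CNGC19 was the only member with a CGCG box, 160 bases before the start. Over the promoters of 26711 protein-coding genes, 28.45% held a W-box core and 3.3% a CGCG box.

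TPC1 was the most abundant of the 10 transcripts, and CNGC19, CNGC20 and GLR3.6 were the 3 least abundant in each of the 6 groups, in an order that changed between groups. Levels were compared per length, as counts scaled by TMM to 1e+06 per library (CPM), divided by the exonic length in kilobases (CPM per kb). In WT mock libraries TPC1 averaged 42 ± 6.57 CPM per kb, OSCA1.1 13.9 ± 1.17, CNGC2 11.3 ± 1.71, CNGC6 9.18 ± 1.12, CNGC4 6.55 ± 0.899, OSCA1.3 4.89 ± 1.27, GLR3.3 4.59 ± 1.39, CNGC20 1.94 ± 0.602, GLR3.6 1.3 ± 0.627 and CNGC19 0.984 ± 0.436 (SD, n = 4). Between neighbours in this order, the ranges of the 4 libraries failed to overlap at 3 steps only, between TPC1 and OSCA1.1, between CNGC6 and CNGC4, and between GLR3.3 and CNGC20. The other neighbours did not differ beyond their spread. TPC1 was the highest of the 10 in 24 of 24 libraries, and OSCA1.1 lay above OSCA1.3 in 24 of 24. GLR3.3 lay above GLR3.6 in 23 of 24 libraries and CNGC2 above CNGC4 in 21 of 24. CNGC20 lay above CNGC19 in 12 of 24 libraries, and the order of these adjacent genes differed between mock and DMBQ groups. The mean of CNGC20 was the higher in mock in each genotype and the lower with DMBQ in each. With DMBQ it was 1.17 ± 0.421 in WT, against 1.22 ± 0.723 for CNGC19. In card1-1 mock the means were 1.67 ± 0.456 for CNGC20 and 0.579 ± 0.341 for CNGC19. With DMBQ they were 1.52 ± 1.71 and 1.82 ± 1.22 there. These levels rest on few counts, and the change of order was not tested. The labels do not say whether libraries covered whole transcripts or their 3′ ends, in which case division by length would mislead. Without it, by CPM over all 24 libraries, the means were 122 for TPC1 and 4.74, 4.35 and 3.51 for GLR3.6, CNGC20 and CNGC19.

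**Figure D1:**
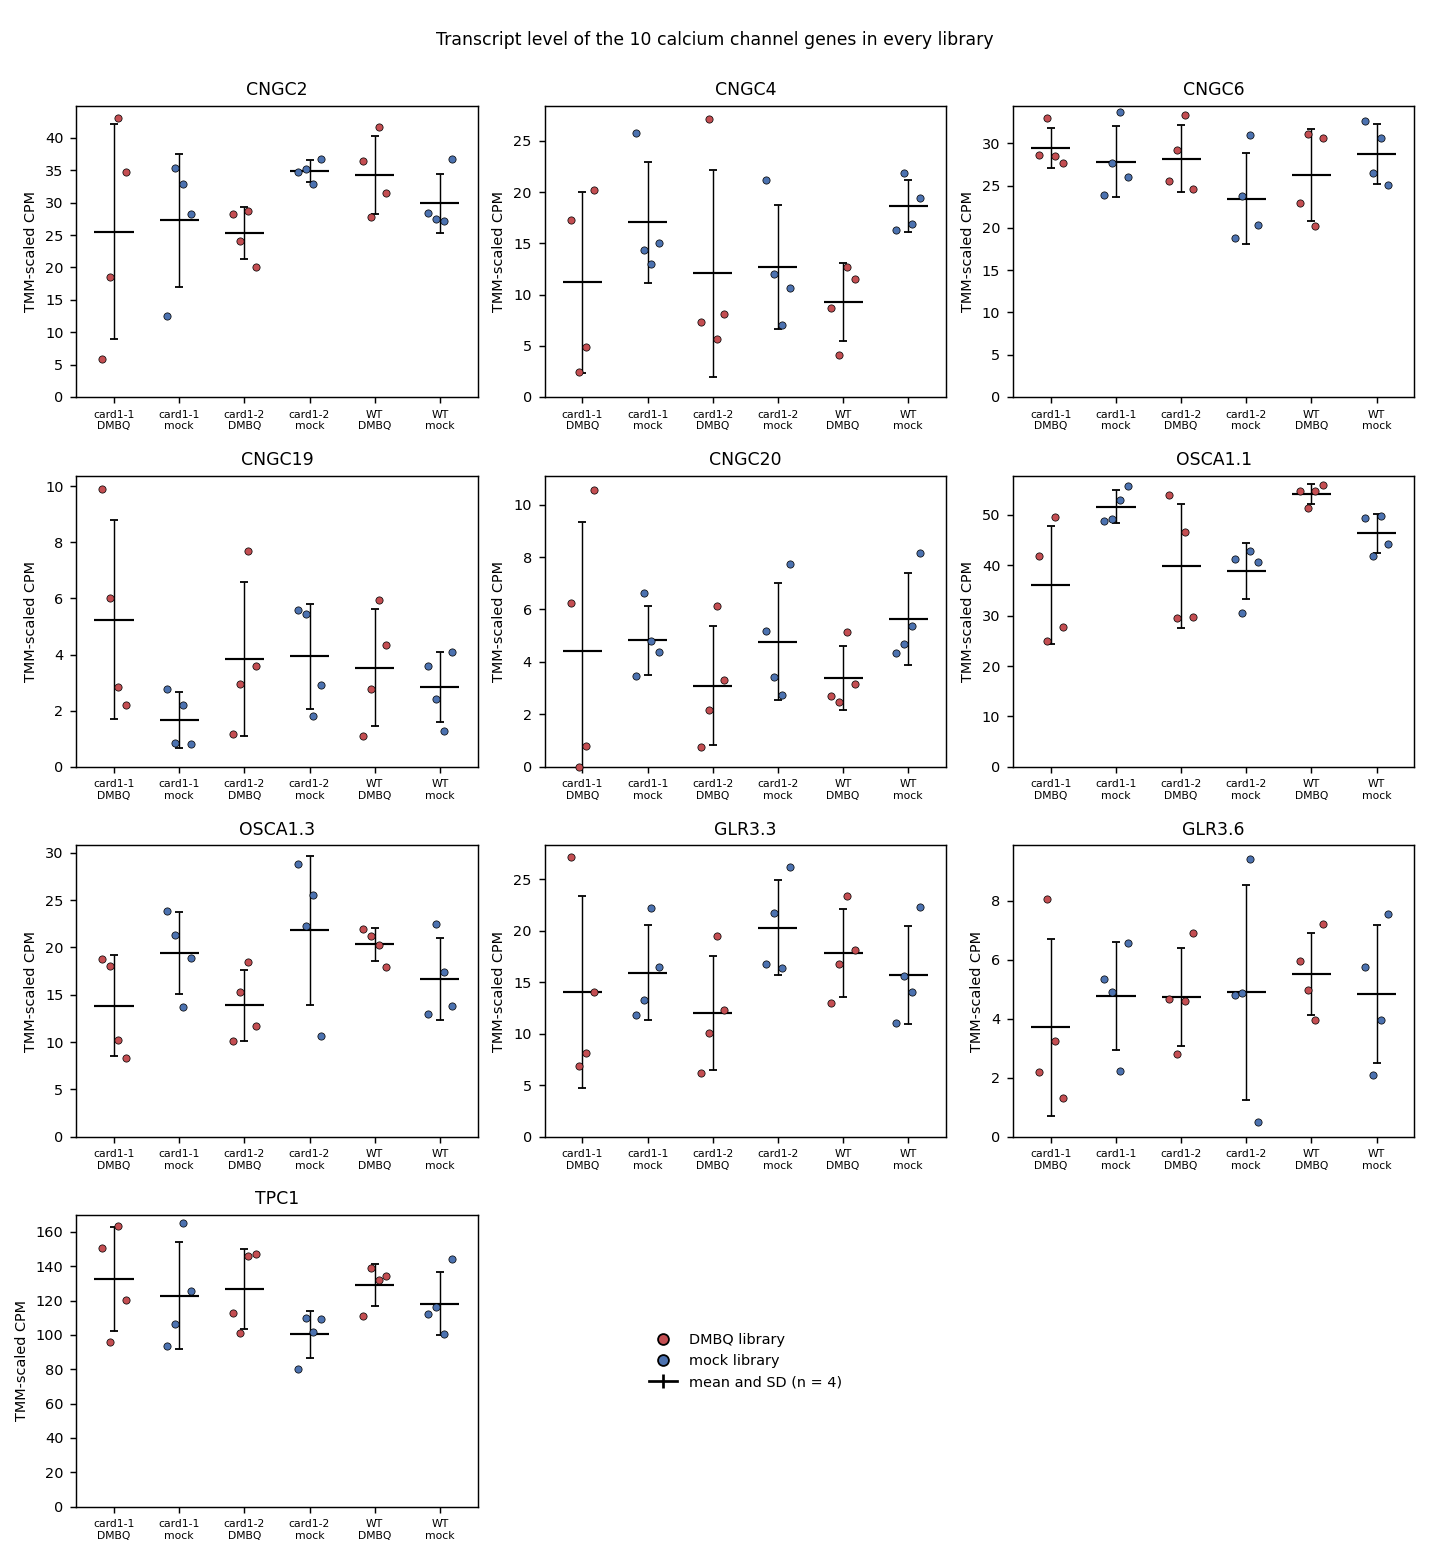
TMM-scaled CPM (vertical axes) of the 10 channel genes in each of 24 libraries, by genotype and treatment (horizontal axes); points are libraries, horizontal lines means and vertical bars SD (n = 4), with the lower bar of CNGC20 in card1-1 with DMBQ reaching past the axis at 0. DMBQ and mock libraries overlap in most panels, and CNGC4 and OSCA1.1 in WT and CNGC2 in card1-2 are where they do not. The share of all tested genes without overlap was not counted.

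With DMBQ, no channel transcript passed the test in any genotype. In card1-1, 0 of 10 were called at an adjusted p under 0.05, where 6.7% of all tested genes were. In card1-2, 0 of 10 were called against a background of 2.2%, and in WT 0 of 10 against 1.03%. At an unadjusted p under 0.05 the counts were 2 members in card1-1 (20.3% of all genes), 2 in card1-2 (14.4%) and 1 in WT (5.55%). The test was edgeR's quasi-likelihood test with Benjamini-Hochberg adjustment over all 17734 genes, and every p below comes from it unless another fit is named. Fold changes are log2 values of DMBQ over mock with their standard error (SE) or 95% confidence interval. Nothing in the labels ties each replicate to a culture of its own, so the p-values rest on a spread that may be partly technical. How often compared groups fail to overlap over all tested genes was not counted, so overlap is given as description only. In whole seedlings, fewer cells of a type and less RNA per cell cannot be told apart.

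CNGC4 had the lowest p of the 10 in WT. CNGC4 (AT5G54250, chr5:22025035-22030099, minus strand) is the partner of CNGC2 in immune calcium entry. It was at 8.65, 4.13, 12.7 and 11.5 CPM in the WT libraries with DMBQ, against 16.3, 21.9, 16.9 and 19.5 CPM in the WT mock libraries. The 2 sets did not overlap, and the means were 9.25 ± 3.81 CPM with DMBQ and 18.6 ± 2.56 CPM in mock (SD, n = 4 each). The log2 fold change was −1.02 (SE 0.49, 95% interval −2.02 to −0.02, edgeR adjusted p = 0.874), so the call failed after adjustment. In card1-1 the libraries with DMBQ held 17.3, 2.41, 4.88 and 20.2 CPM, against 25.8, 14.4, 12.9 and 15.1 CPM in mock. In card1-2 they held 7.37, 27.2, 5.63 and 8.08 CPM, against 21.2, 12, 6.99 and 10.7 CPM in mock. Both mutants thus had high and low libraries within the DMBQ group, and the log2 fold changes were −0.61 (SE 0.49) in card1-1 and 0.01 (SE 0.48) in card1-2. The difference of the response from WT was 0.41 (95% interval −1.01 to 1.82) for card1-1 and 1.03 (−0.38 to 2.45) for card1-2, wide enough to hold no difference and a more than 2-fold one. Both card1-2 values rest on DMBQ replicate 2, at 27.2 CPM. Without it the log2 fold change in card1-2 was −0.83 (edgeR adjusted p = 0.488) and the difference from WT 0.19 (adjusted p = 0.976).

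Its partner CNGC2 (AT5G15410, chr5:5003226-5006882, minus strand) gave no matching pattern. CNGC2 was at 28.3, 24.1, 28.7 and 20.1 CPM in card1-2 with DMBQ, against 34.8, 35.2, 32.8 and 36.8 CPM in card1-2 mock. These sets did not overlap either, yet the log2 fold change of −0.47 (95% interval −1.14 to 0.20, edgeR adjusted p = 0.572) was not called. In card1-1 with DMBQ it spread from 5.88 to 43.1 CPM, against 12.5 to 35.4 CPM in mock, and in WT from 27.8 to 41.6 CPM, against 27.2 to 36.7 CPM. CNGC2 overlaps AT5G15400 by 28 bases on the same strand, and reads there cannot be assigned with certainty.

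CNGC6 (AT2G23980, chr2:10201104-10205422, minus strand), a channel known from heat-induced calcium entry, was among the steadiest members. Its log2 fold change was 0.09 (95% interval −0.37 to 0.54) in card1-1, 0.25 (−0.21 to 0.71) in card1-2 and −0.13 (−0.58 to 0.32) in WT. In fold units the WT interval ran from 0.67 to 1.25, so a doubling or a halving lay outside it. CNGC6 shares 621 bases with AT2G23985 on the opposite strand, and whether the counting used strand is not given in the sources used here, so part of its count may belong to that gene.

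CNGC19 and CNGC20, both known from damage and immune signalling, are neighbours on chromosome 3 with 284 bases between them. CNGC19 (AT3G17690, chr3:6045002-6048529, plus strand) was at 9.91, 6.03, 2.85 and 2.2 CPM in card1-1 with DMBQ, against 2.78, 0.864, 2.22 and 0.823 CPM in card1-1 mock. The highest DMBQ libraries were replicates 1 and 2, and the groups overlapped. These levels rest on 5 to 27 counts with DMBQ and 3 to 12 in mock, and the log2 fold change of 1.64 (95% interval 0.18 to 3.09, edgeR adjusted p = 0.181) was not called. It was −0.08 (SE 0.69) in card1-2 and 0.32 (SE 0.69) in WT, and the card1-1 response minus that of WT was 1.32 (95% interval −0.69 to 3.33), which was not called.

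CNGC20 (AT3G17700, chr3:6048814-6052675, plus strand) split the card1-1 libraries. It was at 6.24, 0, 0.814 and 10.6 CPM in card1-1 with DMBQ, against 3.48, 6.62, 4.81 and 4.39 CPM in card1-1 mock. The 0 in replicate 2 allows up to 1.21 CPM (3 counts, counting error only). Replicates 1 and 4 were high and replicates 2 and 3 low, and in the same libraries CNGC4 had 47 and 46 counts against 6 and 12, and GLR3.3 had 74 and 32 against 17 and 20. Replicates 1 and 4 were also those with 57.7% and 66.5% of records not unique, against 48.3% and 51.3%. Over all libraries the log2 fold change of CNGC20 in card1-1 was −0.13 (SE 0.69), and without DMBQ replicate 4 it was −0.99 (edgeR adjusted p = 0.484). Without the 3 libraries above 55%, CNGC20 fell by 3.47 on the log2 scale in card1-1 (edgeR adjusted p = 0.0364) and CNGC4 fell by 2.23 (adjusted p = 0.0234), each on 2 DMBQ libraries. With that share as a covariate instead, neither was called and CNGC4 lay at 0.41 (adjusted p = 0.913). CNGC20 in WT had 2.71, 2.48, 5.16 and 3.17 CPM with DMBQ, against 4.33, 4.67, 5.38 and 8.16 CPM in mock, with a log2 fold change of −0.74 (95% interval −2.11 to 0.64).

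OSCA1.1 was the member with the lowest p in card1-1. OSCA1.1 (AT4G04340, chr4:2122507-2126910, plus strand) gates calcium entry under hyperosmotic stress. It was at 41.9, 24.9, 49.6 and 27.7 CPM in card1-1 with DMBQ, against 48.7, 49.2, 52.9 and 55.7 CPM in card1-1 mock. Of the 4 DMBQ values, 3 lay under every mock value and replicate 3 lay inside their range. The log2 fold change was −0.52 (SE 0.21, edgeR adjusted p = 0.15). In WT it was at 54.6, 51.2, 54.7 and 56 CPM with DMBQ, against 49.3, 41.8, 49.8 and 44.2 CPM in mock, sets that did not overlap, and the log2 fold change was 0.23 (95% interval −0.19 to 0.65). In card1-2 it was at 53.9, 29.5, 46.6 and 29.6 CPM with DMBQ, against 41.2, 30.6, 42.9 and 40.7 CPM in mock, a log2 fold change of 0.02 (−0.41 to 0.46). The response in card1-1 minus that in WT was −0.74 (SE 0.30, unadjusted p = 0.0171, edgeR adjusted p = 0.393), and in card1-2 minus WT it was −0.20 (95% interval −0.81 to 0.40). Neither difference was called.

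OSCA1.3 (AT1G11960, chr1:4039566-4044046, minus strand), a channel of stomatal immunity, had the lowest p in the difference between both mutants and WT. It was at 18.7, 18.1, 10.2 and 8.36 CPM in card1-1 with DMBQ, against 23.9, 21.3, 13.7 and 18.9 CPM in card1-1 mock. In card1-2 it was at 10.1, 15.3, 18.4 and 11.7 CPM with DMBQ, against 28.8, 22.3, 25.5 and 10.7 CPM in mock. In WT it was at 21.9, 21.2, 20.2 and 17.9 CPM with DMBQ, against 13, 22.5, 17.4 and 13.8 CPM in mock. The groups overlapped in each genotype, and the means were lower with DMBQ in both mutants and higher in WT. The log2 fold change was −0.49 (SE 0.31) in card1-1 and 0.27 (SE 0.30) in WT. In card1-2 it was −0.67 (SE 0.31, unadjusted p = 0.0388, edgeR adjusted p = 0.311). The response minus that of WT was −0.77 (SE 0.44, edgeR adjusted p = 0.624) in card1-1. In card1-2 this difference was −0.94 (SE 0.43, unadjusted p = 0.0362, edgeR adjusted p = 0.617). The mean response of the mutants minus that of WT was −0.85 (SE 0.37, unadjusted p = 0.0281, edgeR adjusted p = 0.517), which was not called.

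GLR3.3 and GLR3.6 are glutamate receptor-like channels of wound signalling. GLR3.3 (AT1G42540, chr1:15973054-15976813, plus strand) was at 6.2, 10.1, 19.5 and 12.3 CPM in card1-2 with DMBQ, against 16.8, 21.7, 16.4 and 26.2 CPM in card1-2 mock. Replicate 3 was the one DMBQ library inside the mock range, and it is also the card1-2 library above 55% not unique. The log2 fold change was −0.78 (SE 0.36, edgeR adjusted p = 0.31) in card1-2, −0.16 (SE 0.36) in card1-1 and 0.18 (SE 0.35) in WT. GLR3.6 (AT3G51480, chr3:19100676-19104844, plus strand) rested on 1 to 31 counts per library. Its log2 fold changes of −0.37 (95% interval −1.62 to 0.88) in card1-1, −0.10 (−1.32 to 1.13) in card1-2 and 0.22 (−0.97 to 1.41) in WT exclude little. Without card1-1 DMBQ replicate 2, its highest library in that group, the card1-1 value was −1.07 (edgeR adjusted p = 0.394). With the share of records not unique as a covariate it was 0.84, and its sign differed from the reported fit in 2 of 35 alternatives. GLR3.3 overlaps AT1G42550 by 9 bases on the same strand, and that gene had 27433 counts over all libraries, against 1304 for GLR3.3, so reads at that end cannot be assigned with certainty.

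TPC1, which conducts the slow vacuolar current, had the narrowest intervals. TPC1 (AT4G03560, chr4:1579929-1585980, plus strand) was at 150, 96.1, 164 and 120 CPM in card1-1 with DMBQ, against 93.7, 107, 165 and 126 CPM in mock. In card1-2 it was at 113, 101, 146 and 147 CPM with DMBQ, against 80.3, 110, 102 and 109 CPM in mock, and in WT at 111, 139, 132 and 134 CPM with DMBQ, against 112, 116, 100 and 144 CPM in mock. The groups overlapped in all 3 genotypes. The fold of DMBQ over mock was 1.08 (95% interval 0.84 to 1.39) in card1-1, 1.26 (0.98 to 1.62) in card1-2 and 1.09 (0.85 to 1.40) in WT. A 2-fold change of TPC1 at 10 min lay outside all 3 intervals, and with 4 libraries per group the data do not exclude changes inside them.

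**Figure D2:**
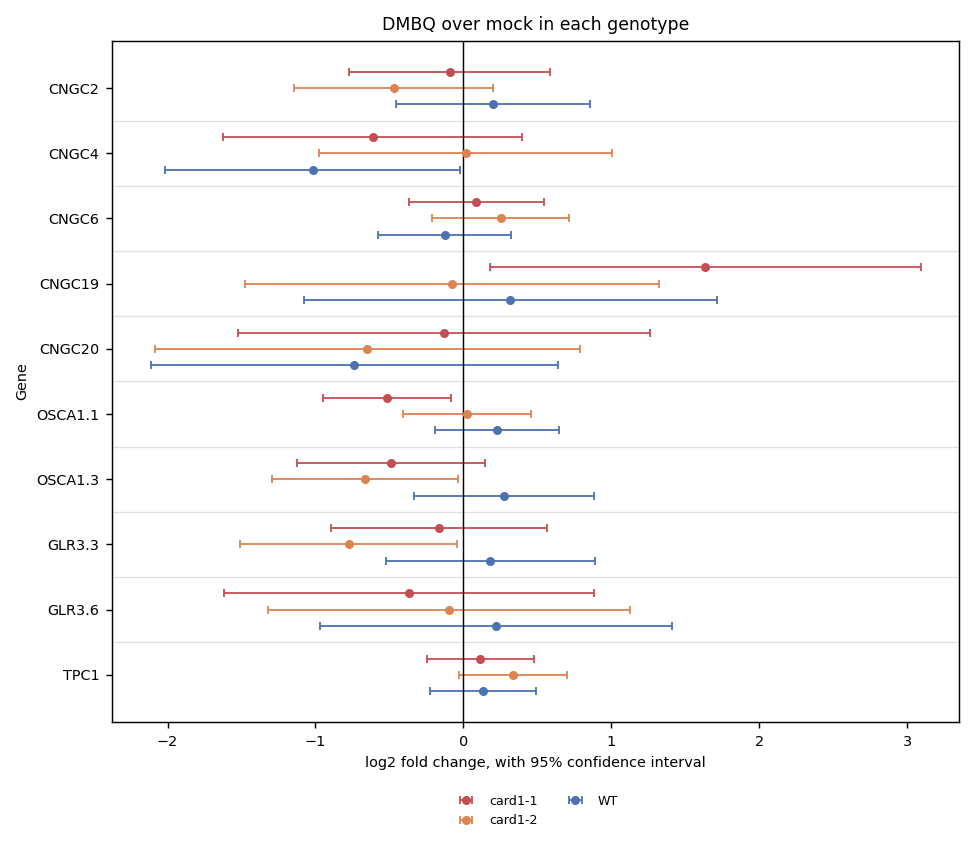
Log2 fold change of DMBQ over mock (horizontal axis) for each gene (vertical axis) in card1-1, card1-2 and WT, with 95% confidence intervals from edgeR's fit to 24 libraries. TPC1 and OSCA1.1 have the shortest bars and CNGC19 and CNGC20 the longest. Before adjustment 5 bars leave 0 out, and none of the genes passed after it.

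The precision differed between members with their level and spread. The biological coefficient of variation, the spread between replicates beyond counting error in edgeR's fit, was 18.9% for TPC1, 20.2% for OSCA1.1, 20.3% for CNGC6, 27.3% for OSCA1.3, 30.6% for CNGC2 and 32% for GLR3.3. It was 45.4% for CNGC4, 49.3% for GLR3.6, 54.8% for CNGC19 and 55.2% for CNGC20. The last 3 of these were also the members with the lowest counts.

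Between genotypes, 0 of 10 members were called in any comparison. With DMBQ the background was 0.801% of all genes for card1-1 against WT and 0.789% for card1-2 against WT. For mock seedlings it was 0% for card1-1 against WT, where edgeR gave 694 genes an unadjusted p under 0.05 and DESeq2 called 6, and 0.0226% for card1-2. The difference of the DMBQ response gave 0 of 10 members for card1-1 minus WT (0.0564% of all genes), for card1-2 minus WT (0.0282%) and for the mean of both mutants minus WT (0.062%). At an unadjusted p under 0.05 there was 1 member in each of these 3 differences (9.41%, 7.64% and 8.12% of all genes) and 1 in each mutant against WT with DMBQ (12.9% in card1-1 and 12.3% in card1-2). The comparisons with WT share its libraries and are not independent of each other. OSCA1.1 had the lowest p among these. With DMBQ its 4 card1-1 values of 41.9, 24.9, 49.6 and 27.7 CPM all lay under the WT values of 54.6, 51.2, 54.7 and 56 CPM. The log2 difference was −0.59 in card1-1 (95% interval −1.02 to −0.15, unadjusted p = 0.00924, edgeR adjusted p = 0.204) and −0.46 in card1-2 (−0.89 to −0.03, adjusted p = 0.356). In mock seedlings it was 0.16 (−0.26 to 0.58) in card1-1 and −0.26 (−0.68 to 0.17) in card1-2. In mock seedlings 0 members reached an unadjusted p under 0.05 in card1-1 (3.91% of all genes) or card1-2 (3.29%), and TPC1 differed by 0.05 (−0.30 to 0.41) in card1-1 and −0.24 (−0.60 to 0.13) in card1-2.

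**Figure D3:**
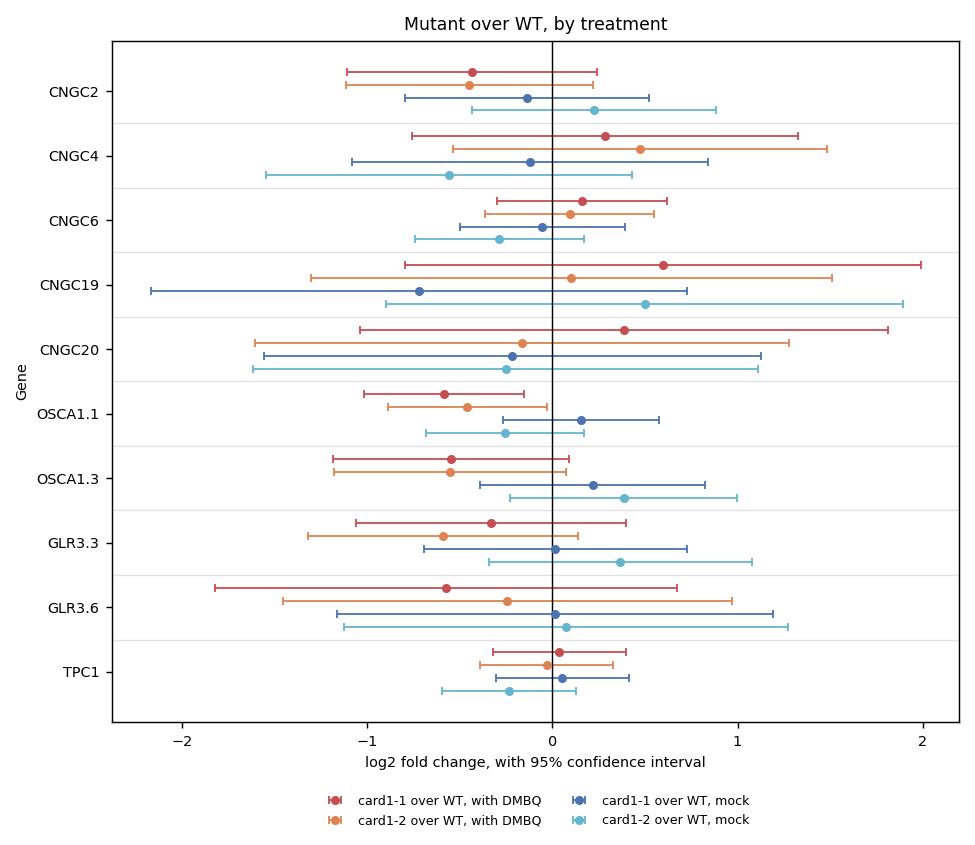
Log2 fold change of each mutant over WT (horizontal axis) for each gene (vertical axis), with DMBQ and in mock seedlings, with 95% confidence intervals from edgeR's fit. OSCA1.1 is the gene whose bars leave 0 out, in both mutants with DMBQ, and it was not called after adjustment over 17734 genes.

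The members are long transcripts, and length moved with the mutants' response to DMBQ. Exonic lengths ran from 2661 bases for CNGC2 to 3731 for GLR3.6, against a median of 1825 over all tested genes. In card1-1 the median log2 fold change over all tested genes went down with length, from 0.46 for genes of up to 500 bases to −0.44 for those above 5000. The 10 members had a median of −0.15 in card1-1, against −0.004 for all tested genes and −0.19 for the 3154 tested genes of 2500 to 3800 bases. In card1-2 the members' median was −0.09, against 0.03 and −0.17, and in WT it was 0.19, against −0.01 and −0.04. In both mutants the members' median was thus below 0 but above that of genes of like length. With offsets for length and GC content in the fit, the members' median was 0.06 in card1-1 and 0.17 in card1-2, and OSCA1.1 in card1-1 lay at −0.26 (edgeR adjusted p = 0.583). That was its value nearest 0 over the 35 alternatives. With the share of records not unique as a covariate instead, OSCA1.1 in card1-1 lay at −0.81, the farthest. None of the 35 called it. The part of length in the single genes' values was not tested further.

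**Figure D4:**
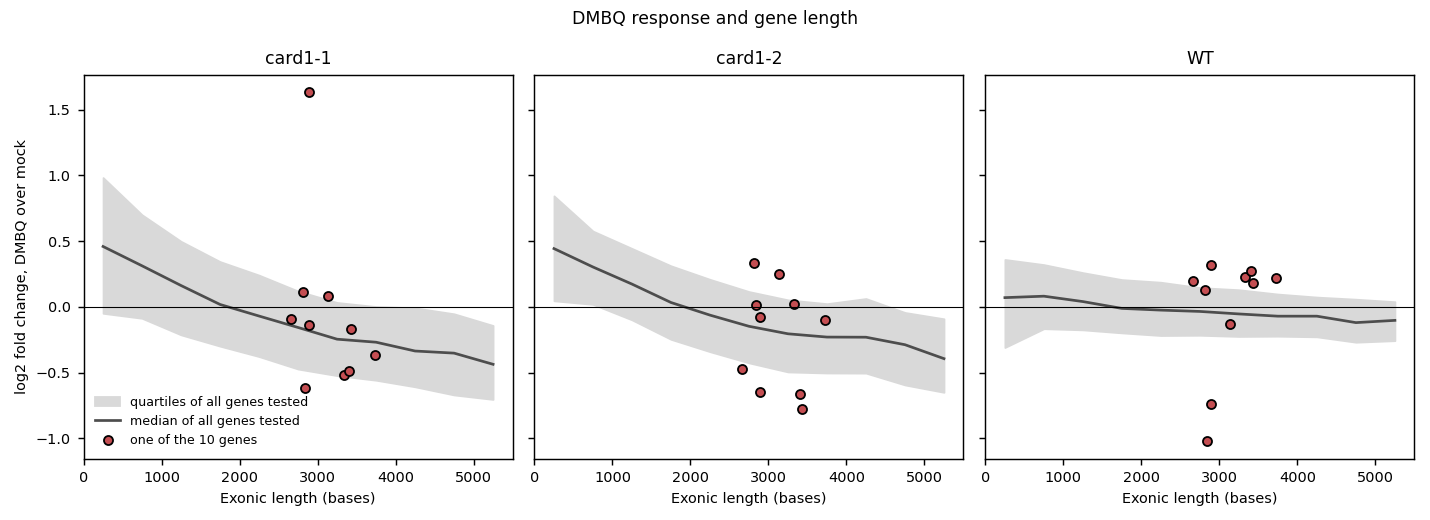
Log2 fold change of DMBQ over mock (vertical axis) against exonic length in bases (horizontal axis) in card1-1, card1-2 and WT; the line and band are the median and quartiles of all tested genes in bins of 500 bases and the red points the 10 channel genes. The band slopes down in both mutants and little in WT, and the members scatter on both sides of its median line.

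The rest of the channel families and other calcium routes gave counts of calls near the background. A list of 57 such genes held 15 CNGC, 18 GLR and 13 OSCA genes and 11 other transporters, channels and channel kinases, of which 10, 6, 11 and 10 were tested. With DMBQ 1 of these 37 rose and 1 fell in card1-1 (6.7% of all tested genes were called there), 0 were called in card1-2 (2.2%), and 1 rose in WT (1.03%). Over the other 7 comparisons 1 call was made, CNGC13 in card1-2 against WT with DMBQ (0.789% of all genes).

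AT5G66650, annotated by RefSeq as a calcium uniporter, rose with DMBQ in card1-1 and in WT. It averaged 17.4 ± 8.73 CPM in card1-1 with DMBQ and 3.82 ± 1.66 CPM in card1-1 mock, and 15.8 ± 3.4 CPM in WT with DMBQ and 2.77 ± 1.41 CPM in WT mock (SD, n = 4 each). The groups did not overlap in either genotype, and the log2 fold change was 2.16 (SE 0.45, edgeR adjusted p = 0.00239) in card1-1 and 2.53 (SE 0.46, adjusted p = 0.000602) in WT. In card1-2 it averaged 10.1 ± 5.56 CPM with DMBQ and 5.53 ± 0.948 CPM in mock, groups that overlapped, with a log2 fold change of 0.85 (SE 0.45, adjusted p = 0.389). The card1-2 response was not shown to differ from WT (−1.67, SE 0.64, adjusted p = 0.488). The WT call held in all 35 alternative fits, and the card1-1 call was lost with the share of records not unique as a covariate (2.51, adjusted p = 0.167).

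ERD4, the most abundant OSCA family gene measured, fell in card1-1. It averaged 88.3 ± 21.9 CPM in card1-1 with DMBQ and 163 ± 68.6 CPM in card1-1 mock (SD, n = 4 each), and the groups overlapped. The log2 fold change was −0.88 (SE 0.21, edgeR adjusted p = 0.0078), and the response was not shown to differ from WT (−0.78, SE 0.29, adjusted p = 0.361). The call was lost in 5 of 35 alternative fits, among them the one without card1-1 mock replicate 1 (−0.57, adjusted p = 0.0908) and the one with the covariate (−0.24, adjusted p = 0.851). CNGC13 averaged 1.46 ± 0.732 CPM in card1-2 and 7.68 ± 2.56 CPM in WT with DMBQ, sets that did not overlap. It was lower in card1-2 by the test (log2 difference −2.25, SE 0.57, edgeR adjusted p = 0.0453), a call lost in 25 of 34 alternative fits, 18 of which left out a single library. The largest adjusted p among these was 0.155.

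**Figure D5:**
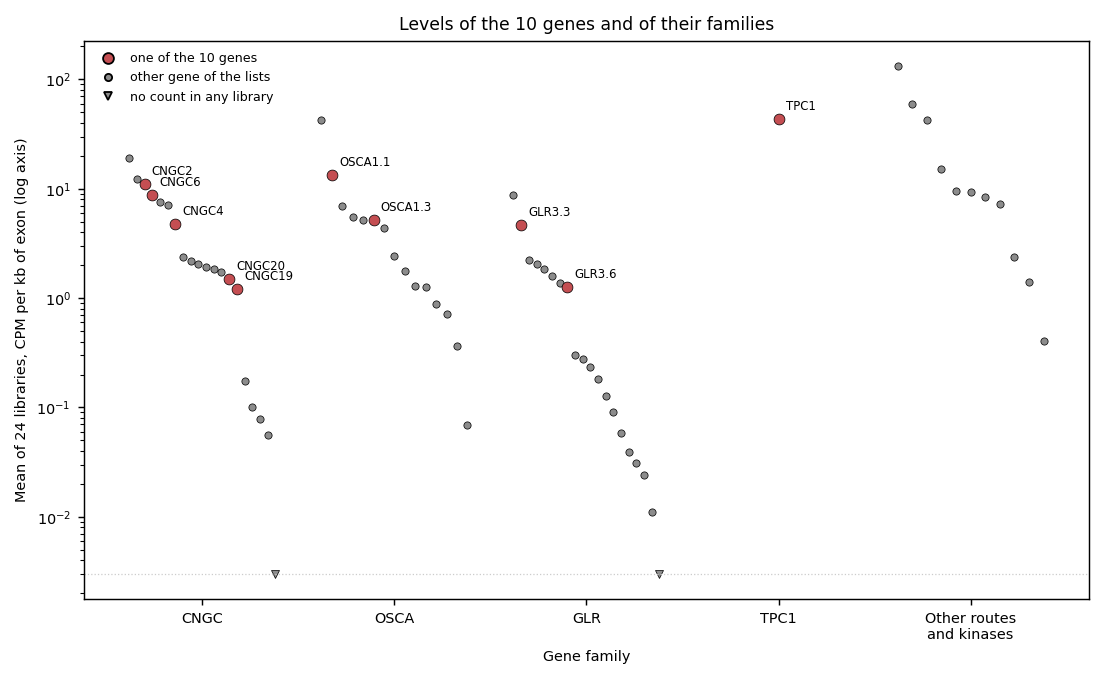
Mean level over 24 libraries in CPM per kb of exon (vertical log axis) of the 10 members and of 57 other channel and calcium transport genes, by family (horizontal axis); triangles mark genes with no count. TPC1 at 43.2 lies beside ERD4 at 42.4, and CNGC19, CNGC20 and GLR3.6 lie between 1.22 and 1.5.

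Within their families the members were not the most abundant genes except TPC1, which has no relative in the list. CNGC1 averaged 19.1 CPM per kb over 24 libraries and CNGC5 12.2, above CNGC2 at 11.1, and GLR3.4 averaged 8.74, above GLR3.3 at 4.66. ERD4 averaged 42.4, above OSCA1.1 at 13.3. CNGC7 and GLR2.9 had no count in any library.

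Across the 24 libraries the members did not vary as one group. Pearson correlations of log2 CPM between the 45 pairs ran from −0.42 for OSCA1.3 with TPC1 to 0.75 for CNGC20 with GLR3.3, and CNGC4 with CNGC20 had 0.65. The partners CNGC2 and CNGC4 had −0.12, and the neighbours CNGC19 and CNGC20 had 0.02. The libraries share genotype, treatment and depth, and members' correlations with the share of records not unique ran from −0.43 for CNGC4 to 0.36 for CNGC19. Among 14675 genes with a mean of at least 5 CPM, those most like CNGC4 over 24 libraries were UBP13 (r = 0.80), AT1G09750 (0.78) and AT4G36180 (0.75). Those most like OSCA1.3 were KLCR3 (0.78), ADT1 (0.75) and NIK1 (0.75).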

How the data were processed

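RNA from 24 libraries of whole seedlings was sequenced. Library preparation cites Townsley et al., per the labels' protocols. The submitters' processing notes name TAIR10 as the build, and as tools HTSeq 0.6.1, TopHat2 2.1.1, TopHat, bcl2fastq 2.17 and CASAVA. The strand setting of the counting is not given in the sources used here, nor is the annotation release. The table deposited by the authors holds whole-number read counts per gene. Its columns also carry 9 lines of tallies that name no gene, 1 of them percentages with decimals, so the unit is recorded as estimated counts as deposited, with no rounding needed. These lines entered neither library sizes nor tests. As a share of all tallied records, they held those not unique (17.3% to 66.5%), without a feature (1.86% to 3.1%) and ambiguous (0.149% to 0.36%). No sample column was left unused.

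Of 33602 genes, 32827 matched the RefSeq annotation of TAIR10.1, the source of names, coordinates, exonic length and promoters. Low genes were removed by filterByExpr (groups given, count minimum 10, total minimum 15), and libraries were scaled by TMM. Quasi-likelihood tests, with both directions tested, came from edgeR 4.0.16 (robust, R 4.3.3). A single model held the 24 libraries and 6 group terms without a block, with Benjamini-Hochberg adjustment over 17734 genes within each of 10 comparisons at a threshold of 0.05. CPM are TMM-scaled to 1e+06 counts. The method was run on simulated counts with large changes and a single spread shared by all genes, which does not measure its power for the members. Replicate pairs within groups differed by more than sampling noise (chi-square per degree of freedom 3.78 to 29.2), so each library counted once. Alternatives were other scalings and filters, DESeq2 1.42.0, limma 3.58.1 voom, only the groups compared, a replicate block, length and GC offsets, the share not unique as covariate or limit, and each library left out.

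All 10 members were tested in each comparison, and not every value is printed. From the list of 57 other genes those past the threshold are named, and for the members with the lowest p in the WT response and in the mutants' difference, the 3 genes most correlated (log2 CPM, prior count 2). The members, the lists and these rules were chosen with earlier results of these data known.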

Additional observations from a re-analysis of the deposited data

Results flagged for a closer look

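Of 60 sets of 4 libraries, 1 per gene and group, 3 held a library far from its others, with a gap to the nearest library, as a share of the set's whole range, above Dixon's 95% critical value. Chance alone flags about 1 set in 20. CNGC4 was at 27.18 CPM in card1-2 DMBQ replicate 2, against 5.63 to 8.08 CPM in the other 3, a gap of 0.886 of the range. That library was the deepest of all, with 9000207 counts, and its share of records not unique, 31.9%, was the lowest of the DMBQ-treated mutant libraries. The root marker PRP3 was at 268.6 CPM in it, against 45.7 to 77.3 CPM in the other 3. CNGC4 was also at 25.75 CPM in card1-1 mock replicate 1, against 12.9 to 15.1 CPM in the other 3, a gap of 0.834, and that library had the lowest share not unique of all, 17.3%, and PRP3 at 299 CPM, against 94.3 to 130.5 CPM in the other 3. CNGC2 was at 36.72 CPM in WT mock replicate 4, against 27.2 to 28.4 CPM in the other 3, a gap of 0.877. The part of depth, alignment and root RNA in these values was not tested.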

How the results depend on the processing

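The count of members called was 0 in all 10 comparisons under all 35 alternatives with 1 exception. Without the 3 libraries above 55% of records not unique, 2 members were called in card1-1 with DMBQ against mock, CNGC4 (−2.23, edgeR adjusted p = 0.0234) and CNGC20 (−3.47, adjusted p = 0.0364); the group then held 2 DMBQ libraries, and the cause was not tested. Leaving out each library in turn gave 0 to 0 members called in every comparison, with 0.0547 as the smallest adjusted p of any member, for OSCA1.1 in card1-1 without DMBQ replicate 3. Of 3497 member values under other settings 131 had another sign than the main value, none of them among the 349 of members with an unadjusted p under 0.05. With only the groups compared, 9 of 10 members passed the filter in the 3 comparisons of 2 groups with card1-1. Counts over all genes moved more. The ranges that follow are for the 11 alternatives other than leaving out 1 library. In card1-1 the count ran from 119 with the covariate to 1559 by DESeq2 (1189 in the reported fit). It ran from 195 to 615 in card1-2 (390) and from 159 to 349 in WT (182). Against WT with DMBQ it ran from 34 to 312 for card1-1 (142) and from 17 to 400 for card1-2 (140). For card1-2 against WT in mock it ran from 2 to 19 (4). For the differences of the response it ran from 2 to 99 in card1-1 (10), 3 to 56 in card1-2 (5) and 6 to 119 for their mean (11). Leaving out 1 library gave counts below some of these limits. They were as low as 117 in WT and 1 for card1-2 against WT in mock. They were also as low as 1 for the difference in card1-2 and for the mean difference. Without card1-1 mock replicate 1 the count in card1-1 was 616. With a replicate block the counts of all genes called were 1359 in card1-1, 528 in card1-2 and 234 in WT, and 0 members were called. Same-numbered libraries correlated at −0.059 to 0.235 in 60 pairs, 16 of them over 0.1. The reported fit did not take the numbers as pairs. Yet 15 of 24 libraries correlated best with their own number, more than a random match would give. Whether the numbers mark a shared batch was not tested. Depth limits CNGC19, CNGC20 and GLR3.6, whose libraries held at most 38 counts of each.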
